A study of Mus musculus with 10 samples.

Results

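Matricellular and provisional matrix genes were followed in amputated mouse digit tips, in wild type animals and in ΔLARM1/2 mutants. In these mutants limb enhancers of Lmx1b are deleted. The set holds 10 genes, Tnc, Tnn, Tnxb, Postn, Sparc, Thbs2, Thbs4, Cthrc1, Fn1 and Vcan. They were chosen by name from the 21729 genes of the deposited protein-coding table, and all 10 were found there and passed the filter on low counts. RNA came from the amputated digit tip, where a regenerating digit forms a blastema, the mound of dividing cells that builds the new tip. Whether the mutant tips regrow was not tested here. The 4 groups were wild type at 12 days post amputation (dpa), wild type at 14 dpa, ΔLARM1/2 at 12 dpa and ΔLARM1/2 at 14 dpa, and each day had 2 libraries of wild type and 3 of mutant tissue. The mice were of mixed CD1 and C57Bl/6 background and 33 days old at 12 dpa or 35 days old at 14 dpa, and each library pooled 6 amputated central hindlimb digits. The labels do not give a clone, a driver or a batch for the mutants, and no undamaged digit entered the comparison. The labels do not say whether libraries came from separate litters, so the p-values reflect only how far these libraries spread, which may be partly technical.

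Matricellular proteins are secreted into the extracellular matrix but serve mainly to change how cells bind it and how its fibres assemble, and many are made when tissue is built or repaired. Provisional matrix is the loose fibronectin- and versican-rich scaffold that cells migrate through before a collagen matrix is laid down. In regenerating appendages, a matrix rich in tenascin, fibronectin and hyaluronan, which versican binds, is a known feature of the blastema, and its main producers are fibroblasts and other connective tissue cells.

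The libraries held 69998104 to 101632364 expected counts. Lmx1b, whose enhancers are deleted, ran from 1.69 to 2.94 CPM (a gene's counts relative to the scaled total of its library) in wild type and from 0.0278 to 0.336 in mutants. Mutant 14 dpa replicate 1 carries a wild type genotype tag although its title and description call it mutant. Its Lmx1b level was 0.234 CPM, so it was kept as mutant, and results that change without it are given as such. Wild type 14 dpa replicate 1 had the lowest share of counts in protein-coding genes, at 81.5%, against 87.7% to 93.6% in the other libraries. Every group held male and female libraries, with 6 male and 4 female libraries in all. Sex was read from Y-linked counts, which cannot show whether a pool called male also held female digits.

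The promoters of 5 of the genes are shown, over the 250 bases upstream of the start (RefSeq, GRCm38.p6), because they cover both ends of the genotype difference and the least common motif matches. The RefSeq table matched 8 of the 10 genes; Cthrc1 and Fn1 are named only. Thbs2 and Thbs4 had the most negative and the most positive difference between genotypes among the matched genes; Tnc, Postn and Thbs2 held a TATAAA, and Tnxb held the only AP-1 sequence. Each is written 5′ to 3′ on the gene's strand. Capitals mark matches on either strand to TATAAA (letters of the TATA box, wherever they lie), CAGAC (the Smad box), GGAATG (TEAD) and TGANTCA (AP-1).
Thbs2, chr17:14694263-14694512, minus strand: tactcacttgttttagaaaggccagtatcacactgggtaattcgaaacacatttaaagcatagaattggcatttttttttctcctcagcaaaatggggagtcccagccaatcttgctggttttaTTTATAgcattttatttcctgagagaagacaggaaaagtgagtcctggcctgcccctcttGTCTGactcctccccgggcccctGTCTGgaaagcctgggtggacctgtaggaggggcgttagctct
Tnc, chr4:64047016-64047265, minus strand: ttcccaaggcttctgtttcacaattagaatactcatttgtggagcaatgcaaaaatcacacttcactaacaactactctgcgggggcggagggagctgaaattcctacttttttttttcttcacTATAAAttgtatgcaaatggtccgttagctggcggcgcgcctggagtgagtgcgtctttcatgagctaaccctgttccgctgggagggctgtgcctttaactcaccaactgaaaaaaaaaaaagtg
Postn, chr3:54360857-54361106, plus strand, second listed start: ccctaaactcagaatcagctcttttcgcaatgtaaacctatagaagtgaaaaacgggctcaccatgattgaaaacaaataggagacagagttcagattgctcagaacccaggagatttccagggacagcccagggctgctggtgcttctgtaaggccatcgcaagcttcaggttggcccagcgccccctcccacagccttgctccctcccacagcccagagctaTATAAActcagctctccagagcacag
Thbs4, chr13:92794819-92795068, minus strand: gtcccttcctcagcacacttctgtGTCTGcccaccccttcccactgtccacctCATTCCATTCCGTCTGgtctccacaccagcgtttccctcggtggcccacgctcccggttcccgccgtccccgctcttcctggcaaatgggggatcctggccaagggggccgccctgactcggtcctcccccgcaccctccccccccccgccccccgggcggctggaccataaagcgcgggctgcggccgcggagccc
Tnxb, chr17:34670285-34670534, plus strand: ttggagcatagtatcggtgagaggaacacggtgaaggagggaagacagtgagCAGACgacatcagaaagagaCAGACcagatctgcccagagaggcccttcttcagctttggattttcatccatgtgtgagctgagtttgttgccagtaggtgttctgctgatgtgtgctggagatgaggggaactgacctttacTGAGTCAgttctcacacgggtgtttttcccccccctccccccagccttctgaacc

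In the Postn window the TATAAA lay 26 to 21 bases before the start. In Thbs2 and at the first listed start of Tnc, the one shown, it lay 126 to 121 bases before the start, and in Thbs2 on the other strand. From the second listed start of Tnc it lay 205 to 200 bases before. That window, not shown, also holds the letters TATATAAG closer to the start, which the search for exact TATAAA did not match. A TATAAA was present in 3 of the 8 genes and in 12.4% of 32851 promoters. CAGAC was present in 6 of 8 genes against 42.2% of promoters, and GGAATG in 2 of 8, Thbs4 and Tnn, against 12.6%. A gene counted if any listed start matched, and Tnc and Postn have 2 each, whereas the shares are per promoter. The CAGAC of Tnc lay at its second start and that of Postn at its first, outside the windows shown. Bases just after the Thbs2 start and the first Postn start were in no GENCODE M21 transcript of the gene. The other listed starts passed this check. Positions in those windows of Thbs2 and Postn therefore rest on the RefSeq start alone. TGANTCA was found in Tnxb alone against 6.75%. TAATTA, the core letters of LIM homeodomain sites, occurred in 4.84% of promoters and CACGTG, an E-box that is 1 form of CANNTG, in 6.02%, and in none of the 8 genes. The general E-box CANNTG occurred in 6 of 8 genes against 66.2% of promoters, and it is not capitalised. GGAATG overlapped itself in Thbs4, and a match here describes letters only.

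Over both days, 7 of the 10 genes were lower in the mutants, none was higher and 3 did not pass the test. This was the edgeR quasi-likelihood test, with a Benjamini-Hochberg adjusted p under 0.05 over 20216 tested genes. Of all tested genes, 22.2% were called lower and 21.6% higher in the same comparison. The genes that fell were the provisional matrix genes Fn1 and Vcan, the tenascins Tnc and Tnn, and Sparc, Thbs2 and Cthrc1. The remaining 3 were Postn, Tnxb and Thbs4. The median log2 fold change of the 10 genes was -1.12, against 0.02 over all tested genes. In CPM, every mutant library lay below every wild type library on each day for 8 of the 10 genes, and this was so for 26.0% of all tested genes at 12 dpa, 31.6% at 14 dpa and 19.3% on both days. With the tagged library placed in wild type, edgeR called 0 of the 10 genes and 0 of all tested genes, 5447 of which had an unadjusted p under 0.05. The count of genes that fell was 3 with no filter on low counts and also in male libraries only, namely Sparc, Thbs2 and Vcan. It was 8 by DESeq2 and 3 to 8 with any 1 library left out. Among all genes, 4419 of 32132 were called lower with no filter, 2191 of 20599 in male libraries and 4770 of 20170 by DESeq2. With any 1 library left out, 3488 of 21169 to 4530 of 20014 were called lower.

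Fn1 encodes fibronectin, the glycoprotein that cells assemble into the first fibres of a repair matrix. At 12 dpa its level was 1014 and 1107 CPM in the wild type libraries and 412, 387 and 985 CPM in the mutants. At 14 dpa it was 923 and 675 CPM in wild type, with 129, 394 and 241 CPM in mutants. The genotypes did not overlap on either day, but mutant 12 dpa replicate 3 lay just under the wild type pair. Fn1 fell with a log2 fold change of -1.24 (SE 0.35, adjusted p = 0.0207) over both days. The difference was -0.84 (SE 0.50, adjusted p = 0.276) at 12 dpa against -1.65 (SE 0.50, adjusted p = 0.0353) at 14 dpa. Without wild type 12 dpa replicate 1 or 2, the adjusted p over both days was 0.0506 or 0.0634, and without wild type 14 dpa replicate 1 it was 0.0725. The 14 dpa call was lost without any 1 of 6 libraries, which were the 4 wild type libraries and mutant 14 dpa replicates 1 and 3, with adjusted p-values of 0.0556 to 0.167.

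Vcan encodes versican, a large proteoglycan that binds hyaluronan and loosens matrix around migrating cells. The wild type libraries held 123 and 161 CPM at 12 dpa and 143 and 134 CPM at 14 dpa. The mutant values were 53.9, 52.7 and 82.1 CPM at 12 dpa and 23.3, 75.1 and 47.4 CPM at 14 dpa, all below the lowest wild type library. Its log2 fold change was -1.34 (SE 0.29, adjusted p = 0.00648) over both days, -1.17 (SE 0.41, adjusted p = 0.0807) at 12 dpa against -1.51 (SE 0.41, adjusted p = 0.0242) at 14 dpa. At 14 dpa Vcan no longer passed without wild type replicate 1, wild type replicate 2 or mutant replicate 3 of that day, with adjusted p-values of 0.104, 0.0806 and 0.0628.

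Among the tenascins, large multi-armed glycoproteins of developing and healing tissue, Tnc and Tnn fell and Tnxb did not pass the test. Tnc encodes tenascin-C, which weakens the attachment of cells to fibronectin. Tnc read 478 and 541 CPM in wild type and 318, 233 and 444 CPM in mutants at 12 dpa. The 14 dpa levels were 430 and 355 CPM in wild type and 71.3, 219 and 170 CPM in mutants. The gap between genotypes was narrow at 12 dpa, where mutant replicate 3 lay near wild type replicate 1, and wider at 14 dpa. The log2 fold change of Tnc was -0.99 (SE 0.29, adjusted p = 0.0238) over both days and -1.36 (SE 0.41, adjusted p = 0.0352) at 14 dpa. At 12 dpa the difference was -0.62 (SE 0.41, adjusted p = 0.327). The call over both days was lost without wild type 12 dpa replicate 1, without replicate 2 of that group or without replicate 1 of wild type 14 dpa, with adjusted p-values of 0.0530, 0.0754 and 0.0767. The 14 dpa call was lost without any 1 of those 3 libraries, and also without replicate 2 of wild type or replicate 3 of mutant 14 dpa, with adjusted p-values of 0.0541 to 0.156. On TPM with a pseudocount of 1 the adjusted p of Tnc was 0.0549 over both days and 0.0583 at 14 dpa.

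Tnn encodes tenascin-N, also called tenascin-W, which is found in bone-forming and other dense connective tissue. Wild type libraries had 422 and 447 CPM at 12 dpa and 357 and 311 CPM at 14 dpa. Mutants had 172, 243 and 304 CPM at 12 dpa and 80.5, 259 and 167 CPM at 14 dpa, so the genotypes stood apart on each day. The log2 fold change of Tnn over both days was -0.92 (SE 0.29, adjusted p = 0.0299). Neither day alone passed, with -0.86 (SE 0.41, adjusted p = 0.176) at 12 dpa against -0.98 (SE 0.41, adjusted p = 0.0927) at 14 dpa. Of the 7 calls over both days it was the nearest to the threshold: leaving out any 1 of 7 libraries, which were the 4 wild type libraries, mutant 12 dpa replicates 1 and 2 and mutant 14 dpa replicate 3, gave adjusted p-values of 0.0560 to 0.0875. On TPM the call of Tnn was lost as well, with 0.0762 and 0.0681 at pseudocounts of 1 and 0.1.

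Tnxb encodes tenascin-X, a tenascin of loose connective tissue that spaces collagen fibrils, and it was scarce in every library. It measured 2.17 and 9.40 CPM in wild type and 7.26, 6.99 and 18.4 CPM in mutants at 12 dpa. At 14 dpa it measured 8.14 and 13.6 CPM in wild type and 6.28, 13.5 and 10.5 CPM in mutants. The genotypes overlapped on both days, and the log2 fold change over both days was 0.40 (SE 0.47, adjusted p = 0.515). The day values were 0.91 (SE 0.68, adjusted p = 0.380) at 12 dpa against -0.11 (SE 0.65, adjusted p = 0.912) at 14 dpa. Without wild type 12 dpa replicate 1 the value was 0.21 at 12 dpa and 0.056 over both days, and without replicate 2 of that group 2.33 and 1.11. Without mutant 12 dpa replicate 3 it was 0.32 and 0.098. The sign at 14 dpa turned without mutant 14 dpa replicate 1, at 0.14, and without wild type 14 dpa replicate 2, at 0.26.

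**Figure D1:**
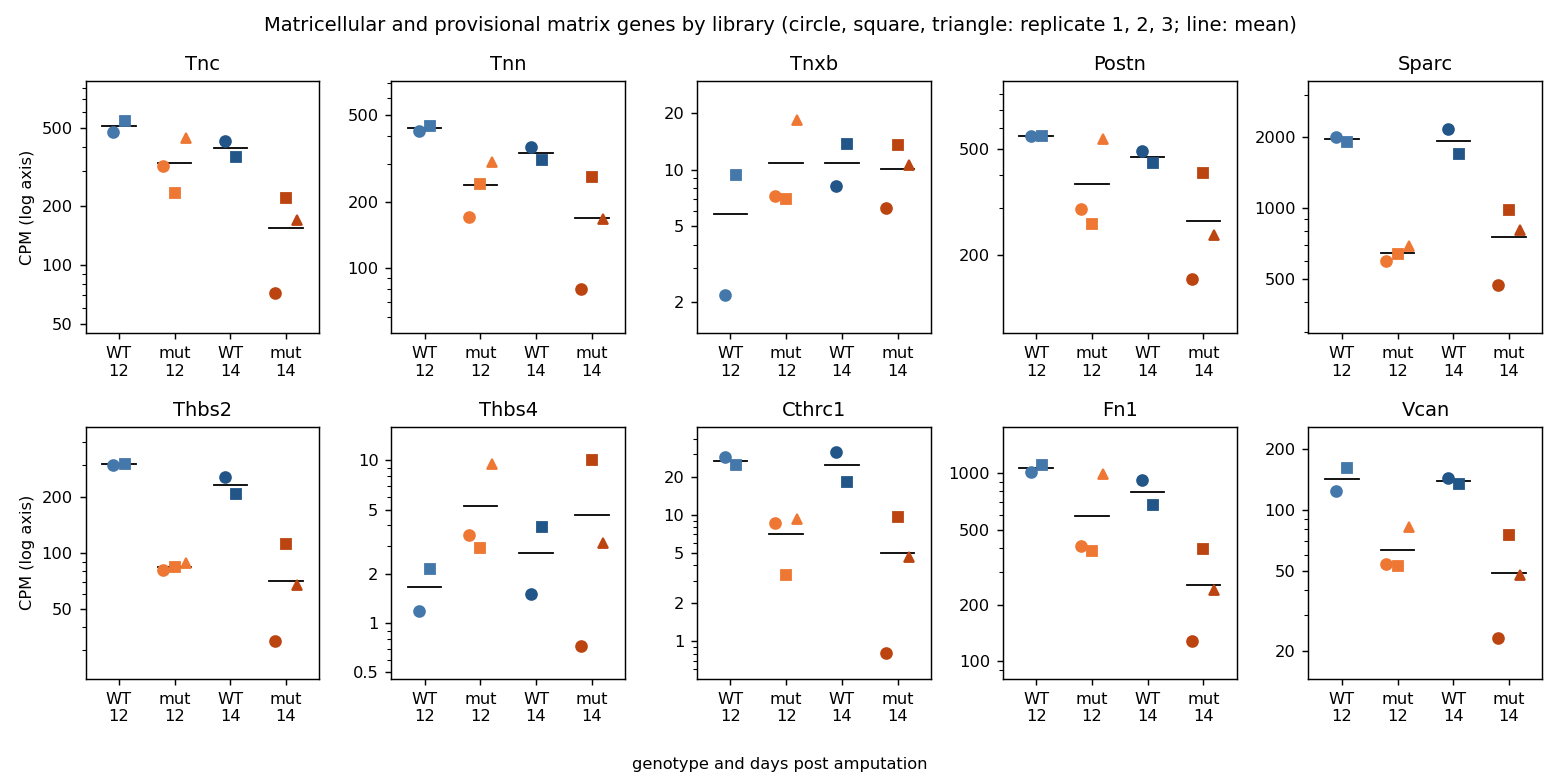
CPM of each of the 10 genes in each library, by genotype and day; points are libraries (circle, square and triangle for replicates 1, 2 and 3), lines are group means, and each panel has its own log axis. For Sparc and Thbs2 the mutant libraries sit far below the wild type libraries, whereas for Tnxb the genotypes overlap.

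Sparc encodes osteonectin, a collagen-binding protein that guides fibril formation, and it was the most abundant transcript of the set. The wild type libraries held 1992 and 1905 CPM at 12 dpa and 2143 and 1685 CPM at 14 dpa. In mutants the levels were 599.6, 637 and 694 CPM at 12 dpa and 473, 976 and 811 CPM at 14 dpa. The groups lay far apart, with the highest mutant library at 976 CPM and the lowest wild type library at 1685 CPM. Sparc fell on both days, with a log2 fold change of -1.60 (SE 0.26, adjusted p = 0.00512) at 12 dpa against -1.35 (SE 0.26, adjusted p = 0.00617) at 14 dpa. Both days together gave -1.47 (SE 0.18, adjusted p = 0.000419), a 2.77-fold lower level.

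Thbs2 encodes thrombospondin-2, which limits vessel growth and takes part in collagen fibril assembly. It read 301 and 302 CPM in wild type and 80.7, 84.6 and 87.95 CPM in mutants at 12 dpa. At 14 dpa it read 257 and 209 CPM in wild type and 33.4, 112 and 67.1 CPM in mutants. The libraries within each 12 dpa group were close to one another and the groups lay far apart. Thbs2 fell with a log2 fold change of -1.78 (SE 0.27, adjusted p = 0.00139) over both days, -1.84 (SE 0.38, adjusted p = 0.0162) at 12 dpa against -1.72 (SE 0.38, adjusted p = 0.0120) at 14 dpa. The single-day calls depended on the small wild type groups: the adjusted p at 12 dpa was 0.0645 or 0.0868 without wild type 12 dpa replicate 1 or 2, and at 14 dpa 0.0703 without wild type 14 dpa replicate 1.

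Thbs4 encodes thrombospondin-4, a pentameric member of the family found in tendon and muscle, and it was among the scarcest of the 10 genes. Its levels were 1.19 and 2.15 CPM in wild type and 3.49, 2.89 and 9.49 CPM in mutants at 12 dpa. The 14 dpa libraries held 1.52 and 3.91 CPM in wild type and 0.729, 10.1 and 3.10 CPM in mutants. All 3 mutants lay above wild type at 12 dpa, as for 25.7% of tested genes. The groups overlapped at 14 dpa; no gene of the set was above wild type in every mutant library there, against 30.8% of tested genes, nor on both days, against 18.0%. Its log2 fold change of 1.22 (SE 0.71, adjusted p = 0.197) over both days did not pass, nor did 1.67 (SE 1.03, adjusted p = 0.293) at 12 dpa against 0.77 (SE 0.99, adjusted p = 0.573) at 14 dpa. Without mutant 14 dpa replicate 2 the 14 dpa value was -0.51 and that over both days 0.58, and leaving out any 1 library gave 0.58 to 1.61 over both days and 0.95 to 2.16 at 12 dpa.

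Cthrc1 encodes a secreted protein with a short collagen-like repeat that is made by fibroblasts of healing tissue. It had 28.8 and 24.6 CPM in wild type and 8.61, 3.35 and 9.27 CPM in mutants at 12 dpa. At 14 dpa the values were 31.1 and 18.3 CPM in wild type and 0.807, 9.53 and 4.68 CPM in mutants. Every mutant library was below every wild type library, and the log2 fold change over both days, -2.11 (SE 0.58, adjusted p = 0.0201), was the most negative of the set. Neither day passed alone, with -1.91 (SE 0.81, adjusted p = 0.142) at 12 dpa against -2.30 (SE 0.82, adjusted p = 0.0635) at 14 dpa. This call, too, was lost without wild type 12 dpa replicate 1, without replicate 2 of that group or without replicate 1 of wild type 14 dpa, with adjusted p-values of 0.0543, 0.0501 and 0.0686.

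Postn encodes periostin, which links collagen to fibronectin and tenascin-C in periosteum, tendon and wounds. Its wild type levels were 561 and 558 CPM at 12 dpa and 493 and 443 CPM at 14 dpa. Mutants held 299, 262 and 547 CPM at 12 dpa and 163, 408 and 239 CPM at 14 dpa. No mutant library reached a wild type library of its day, although mutant 12 dpa replicate 3 stood at 547 CPM against 558 CPM in the lower wild type library. Postn did not pass the test, with a log2 fold change of -0.70 (SE 0.28, adjusted p = 0.0688) over both days, -0.60 (SE 0.39, adjusted p = 0.315) at 12 dpa against -0.79 (SE 0.39, adjusted p = 0.143) at 14 dpa. Its call over both days was reached without mutant 12 dpa replicate 3 (adjusted p = 0.0188) or mutant 14 dpa replicate 2 (adjusted p = 0.0128), and with all libraries by limma-voom (0.0385), DESeq2 (0.0206), rescaled TPM (0.0438) and edgeR on protein-coding genes only (0.0471).

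**Figure D2:**
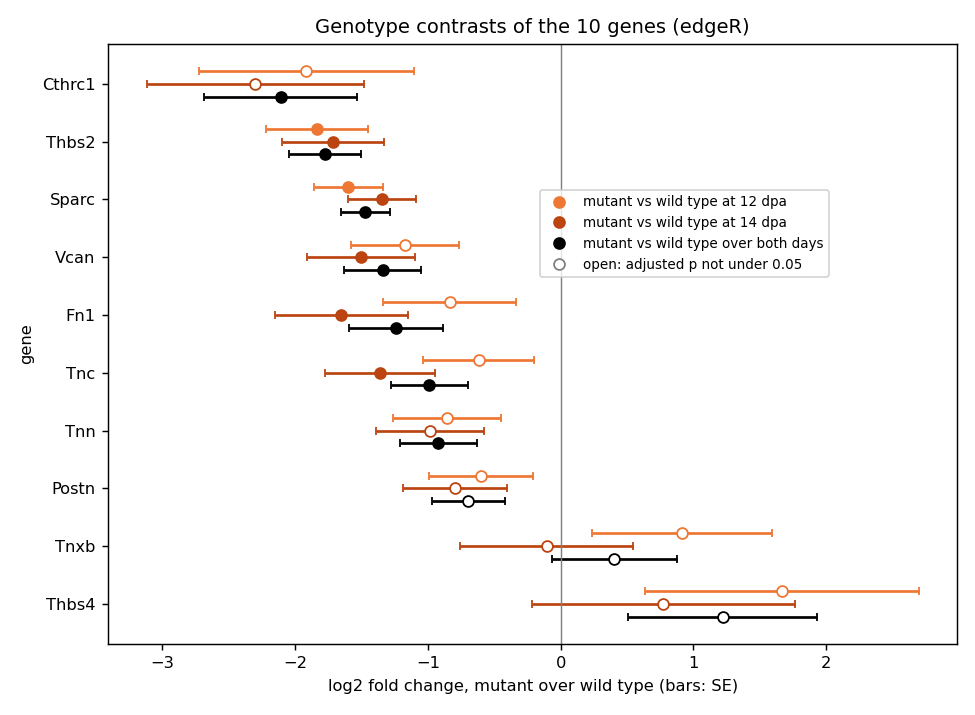
Log2 fold change, mutant over wild type, of the 10 genes over both days, at 12 dpa and at 14 dpa; bars are 1 SE and filled points have an adjusted p under 0.05. The 7 filled points over both days lie left of 0, between -2.11 and -0.92, and Thbs4 and Tnxb lie right of it with wide bars.

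By day, 2 of the 10 genes fell at 12 dpa, Sparc and Thbs2, and none rose; 9.33% of all tested genes were called lower there and 7.18% higher. At 14 dpa 5 fell, Tnc, Sparc, Thbs2, Fn1 and Vcan, against 17.2% of all tested genes called lower and 16.1% higher, and none rose. The fold of the group means was 3.03 at 12 dpa and 2.54 at 14 dpa for Sparc, 3.57 and 3.28 for Thbs2, and 1.78 and 3.14 for Fn1, wild type over mutant. Leaving out mutant 14 dpa replicate 1 added Tnn, Cthrc1 and Vcan at 12 dpa (adjusted p = 0.0430, 0.0348 and 0.0156). Leaving out mutant 14 dpa replicate 2 added Vcan at 12 dpa (adjusted p = 0.0366) and Tnn, Cthrc1 and Postn at 14 dpa (adjusted p = 0.0187, 0.0265 and 0.0277). Without replicate 1, 2269 of 20074 tested genes were called lower at 12 dpa. Without replicate 2, 2025 of 20014 were at 12 dpa and 3446 at 14 dpa. The difference of the genotype contrasts between the days was tested as an interaction, and it passed for none of the 10 genes. None reached an unadjusted p under 0.05 by edgeR, and DESeq2 called none. Over all tested genes edgeR called 0 and DESeq2 48, and 8.72% had an unadjusted p under 0.05 by edgeR. It was -0.74 (SE 0.59, adjusted p = 0.745) for Tnc and -0.82 (SE 0.72, adjusted p = 0.772) for Fn1 on the log2 scale.

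Within a genotype, no gene of the set passed the test of 14 against 12 dpa. In wild type the log2 differences ran from -0.41 for Fn1 to 0.91 for Tnxb, none had an unadjusted p under 0.05, DESeq2 called none, and 0% of all tested genes were called by edgeR in either direction, with 8.18% under an unadjusted 0.05. In mutants Tnc differed by -1.12 (SE 0.38, unadjusted p = 0.0169, adjusted p = 0.177) and Fn1 by -1.22 (SE 0.46, unadjusted p = 0.0268, adjusted p = 0.208). These were the 2 of 10 genes under an unadjusted 0.05 by edgeR, as were 18.8% of all tested genes; edgeR called 0.0198% of all tested genes lower and 0.0148% higher. DESeq2 called both genes lower, and 5.33% of the genes it tested. All 3 mutant Tnc values at 14 dpa lay below the 3 at 12 dpa, as for 11.8% of tested genes.

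The genes varied together from library to library among the mutants. At 14 dpa all 10 were lowest in mutant replicate 1, as were 39.0% of all tested genes, and highest in replicate 2; 21.7% of tested genes had the full order. At 12 dpa all 10 were highest in mutant replicate 3, as were 34.6% of tested genes. The summed share of the 10 genes in all counts was 0.484% and 0.491% in wild type and 0.213%, 0.192% and 0.348% in mutants at 12 dpa. At 14 dpa it was 0.469% and 0.434% in wild type and 0.0829%, 0.245% and 0.167% in mutants. Genes that share a library share its tissue makeup, so the common order counts as 1 observation per library.

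Markers of cell types moved in the same libraries. For the marker counts below, 22.2% of all tested genes were called lower over both days and 21.6% higher. Of 7 fibroblast markers (Pdgfra, Lum, Dcn, Col1a1, Col3a1, Thy1 and Dpt), 5 fell over both days, none rose, and their median log2 fold change was -1.03. Their summed level was 14848 to 16858 CPM in wild type and 4884 to 6849 CPM in mutants at 12 dpa, and 10564 to 15810 CPM and 2180 to 7958 CPM at 14 dpa. The sum mostly follows Col1a1, a matrix gene that averaged 10074.5 CPM in wild type and 3161 CPM in mutants. Dcn, Col1a1 and Col3a1 also stand in the list of matrix partners below, so the 2 lists share genes. Of 8 keratinocyte markers 7 rose, and their sum was 38707 to 56569 CPM in wild type and 62653 to 89010 CPM in mutants at 12 dpa, and 45647 to 59739 CPM and 81678 to 132665 CPM at 14 dpa. Mutant 14 dpa replicate 1 held both the lowest fibroblast sum and the highest keratinocyte sum. Of 5 tendon markers, all 5 fell over both days; their sum was 260 to 308 CPM in wild type and 86.4 to 230 CPM in mutants at 12 dpa, with 230 CPM in mutant replicate 3, and 187 to 190 CPM and 27.5 to 117 CPM at 14 dpa. None of these 3 lists had a marker at 0 in every library. The part of cell composition in the fall of the 10 genes was not tested, and in bulk tissue fewer cells of a type and less RNA per cell cannot be told apart.

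Set against the geometric mean of the 7 fibroblast markers in the same library, a measure added after the values were seen and given with no test, the genes differed in direction. That mean was 245 and 228 CPM in wild type and 112, 109 and 137 CPM in mutants at 12 dpa, and 260 and 237 CPM and 57.3, 176 and 112 CPM at 14 dpa. Thbs2 and Cthrc1 remained below wild type in every mutant library on both days. The ratio of mutant to wild type was 0.559 and 0.649 for Thbs2 and 0.518 and 0.372 for Cthrc1, at 12 and 14 dpa. Sparc was below at 12 dpa (0.658) and overlapped at 14 dpa (0.914), while Fn1 (0.692) and Vcan (0.754) were below at 14 dpa and overlapped at 12 dpa. Tnc overlapped on both days, with ratios of 1.27 and 0.846. Tnn (1.09) and Postn (1.29) lay above wild type at 14 dpa, and Tnxb lay above it on both days, with ratios of 3.51 and 2.11. Thbs4 was above at 12 dpa (5.94) and overlapped at 14 dpa (2.92). On this ratio 5.82% of all tested genes lay below wild type and 67.6% above it at 12 dpa, and 6.11% and 60.6% at 14 dpa, so lying above is the common case.

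**Figure D3:**
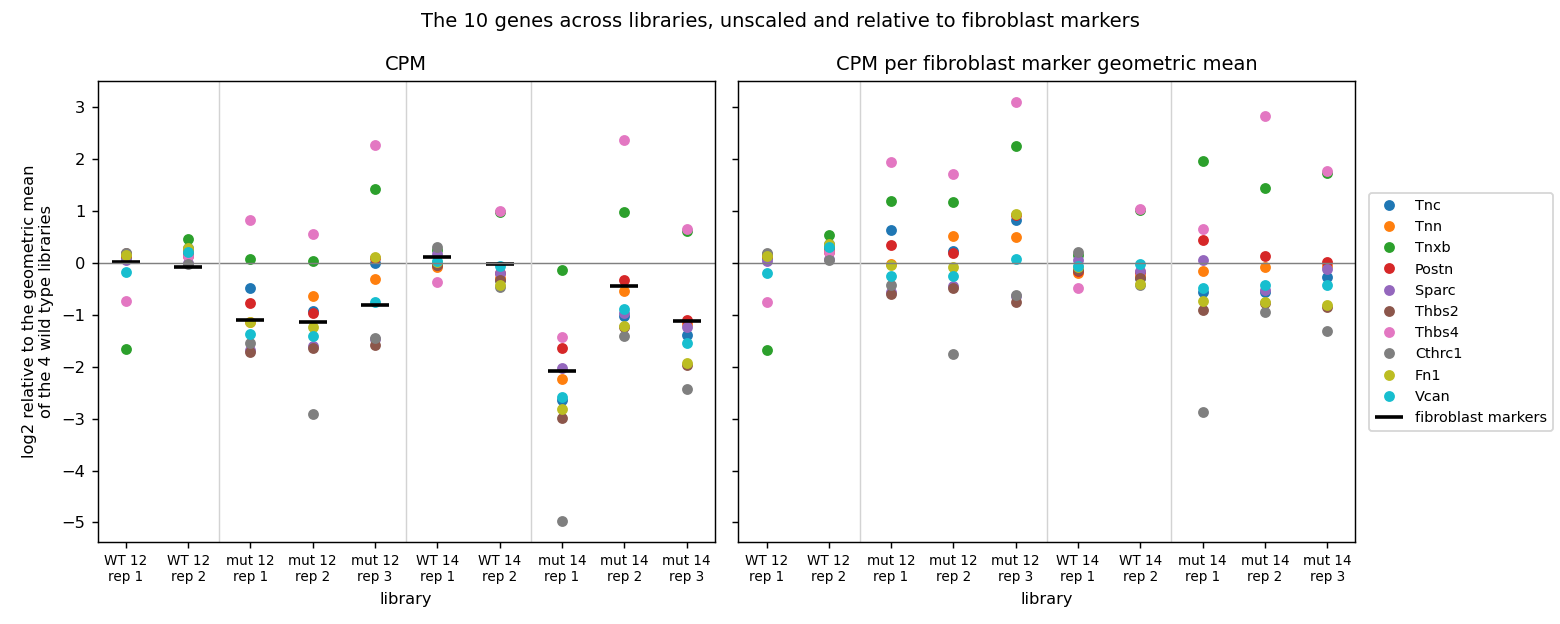
Left, log2 CPM of the 10 genes in each library relative to the geometric mean of the 4 wild type libraries, with the geometric mean of 7 fibroblast markers as dashes; right, the same after division by that marker mean. On the left the dashes and the points of 8 of the 10 genes lie lower in mutants than in wild type of the same day, whereas Thbs4 and Tnxb do not; all are lowest among the 14 dpa mutants in replicate 1; on the right Thbs2 and Cthrc1 remain below the wild type libraries of their day.

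Levels per gene length were compared in TPM, which divides by transcript length. In wild type at 12 dpa the order from high to low was Sparc (909 ± 51.0), Postn (160 ± 16.4), Fn1 (120 ± 16.03), Tnn (59.4 ± 7.88), Tnc (57.4 ± 10.4), Thbs2 (40.9 ± 3.83), Cthrc1 (21.98 ± 0.608), Vcan (11.7 ± 2.85), Thbs4 (0.44 ± 0.212) and Tnxb (0.375 ± 0.361), all TPM as mean ± SD with n = 2. Tnn overlapped Tnc and Thbs4 overlapped Tnxb, and the other neighbours stood apart. The order was the same in wild type at 14 dpa, from Sparc at 690 ± 42.0 TPM to Tnxb at 0.54 ± 0.283 TPM (SD, n = 2), with the same pairs overlapping. In the mutants Sparc also led, at 366 ± 64.3 TPM at 12 dpa and 328 ± 118 TPM at 14 dpa (SD, n = 3), and stood apart from Postn. Below Sparc, 5 neighbouring pairs overlapped at 12 dpa and 7 at 14 dpa, among them Fn1, Tnc and Tnn. Within a library, Fn1 had the higher TPM against Tnc and against Tnn in 6 of 6 mutant libraries, and Tnc against Tnn in 2 of 6. In wild type, Fn1 was higher than each in 4 of 4 libraries, and Tnc was higher than Tnn in 0 of 4.

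In TPM, every mutant library lay below every wild type library for 3 of the 10 genes at 12 dpa, Sparc, Thbs2 and Cthrc1, as for 13.8% of all tested genes. At 14 dpa it did so for those and Tnc, Tnn, Fn1 and Vcan, as for 20.2% of tested genes; both counts are below those in CPM. The protein-coding genes took 276947 and 335670 TPM in the wild type 14 dpa libraries against 420085 to 527792 TPM in the others, so the scale differs between groups. Mean transcript lengths, which reflect which isoforms were counted, showed no gene of the set shorter or longer in every mutant library on both days. At 12 dpa 2 of the genes, Vcan and Cthrc1, were shorter in all mutants, against 13.3% of 14300 genes, and at 14 dpa 2 were, Tnxb and Postn, against 15.3%. Sparc was longer in all mutants at 12 dpa and Cthrc1 at 14 dpa, against 15.4% and 17.9% of genes.

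Of 22 listed relatives, in structure or in matricellular function, 21 were tested. Over both days 11 fell, 2 rose and 8 did not pass, with a median log2 fold change of -1.002. For comparison, 22.2% of all tested genes were called lower and 21.6% higher. Thbs1, which encodes thrombospondin-1, an activator of latent TGF-beta, fell from 299 ± 64.2 CPM in wild type (SD, n = 4) to 85.2 ± 23.5 CPM in mutants (SD, n = 6), with a log2 fold change of -1.80 (SE 0.18, adjusted p = 0.000172). The other thrombospondins did not pass, with -0.17 (SE 0.24, adjusted p = 0.597) for Thbs3 and -1.002 (SE 0.80, adjusted p = 0.342) for Comp. Tgfbi, the nearest relative of Postn, stood at 740 ± 113 CPM in wild type (SD, n = 4) and 695 ± 258 CPM in mutants (SD, n = 6), a log2 difference of -0.11 (SE 0.20, adjusted p = 0.679). Sparcl1, close to Sparc, gave -0.42 (SE 0.29, adjusted p = 0.277), and Tnr, a mainly neural tenascin, 0.19 (SE 0.36, adjusted p = 0.691). The relatives that fell most were Bcan, a proteoglycan of the versican family, at -3.17 (SE 0.79, adjusted p = 0.0114) and only 1.05 ± 0.676 CPM in wild type (SD, n = 4), and Ccn1, a matricellular protein that binds integrins, at -2.65 (SE 0.25, adjusted p = 0.000193). Smoc1 and Spock2, both with calcium-binding modules like that of Sparc, rose, with log2 fold changes of 2.08 (SE 0.46, adjusted p = 0.00563) and 0.73 (SE 0.22, adjusted p = 0.0250). Smoc1 was near the floor, at only 0.159 ± 0.0602 CPM in wild type (SD, n = 4) and 0.705 ± 0.452 CPM in mutants (SD, n = 6).

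Of 22 matrix partners of these proteins, 16 fell, none rose and 6 did not pass, with a median log2 fold change of -1.21. Among all tested genes 22.2% were called lower and 21.6% higher. Hapln1, the link protein that fixes versican to hyaluronan, fell from 26.6 ± 2.15 CPM in wild type (SD, n = 4) to 3.16 ± 1.56 CPM in mutants (SD, n = 6), a log2 fold change of -3.07 (SE 0.40, adjusted p = 0.000798). Eln, which encodes elastin, fell from 204 ± 4.76 CPM in wild type (SD, n = 4) to 45.0 ± 13.2 CPM in mutants (SD, n = 6), a log2 fold change of -2.18 (SE 0.22, adjusted p = 0.000218). Of 14 proteases that cleave the proteins 13 were tested, 6 fell and none rose, against the same shares of all tested genes. Adamts4 and Adamts9, both of which cut versican, fell with the same log2 fold change of -1.70 (adjusted p = 0.00286 and 0.00072).

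Of 32 cell surface receptors for these proteins 12 fell, 7 rose and 13 did not pass, with a median log2 fold change of -0.28. Among all tested genes 22.2% were called lower and 21.6% higher, so rises in this list were about as common as over all genes. Itga4, an integrin subunit that binds fibronectin, fell with a log2 fold change of -2.22 (SE 0.33, adjusted p = 0.00117) and Ptprb, an endothelial phosphatase, with one of -1.82 (SE 0.18, adjusted p = 0.000193). Sdc4, a heparan sulfate proteoglycan that helps cells adhere to fibronectin, rose from 248 ± 25.2 CPM in wild type (SD, n = 4) to 398 ± 78.1 CPM in mutants (SD, n = 6), a log2 fold change of 0.67 (SE 0.095, adjusted p = 0.00076). Itgb6, an integrin subunit of epithelium, rose by 0.59 (SE 0.13, adjusted p = 0.00542). Of 24 regulators of the set 9 fell, 3 rose and 12 did not pass, with a median of -0.14. Against the same shares of all tested genes, rises were not more common in this list. Prrx2, a homeobox gene of limb mesenchyme, fell with a log2 fold change of -1.47 (SE 0.28, adjusted p = 0.00302) and Ltbp2, a latent TGF-beta binding protein relative, with one of -1.45 (SE 0.18, adjusted p = 0.000497). Tgfbr3, a TGF-beta co-receptor, rose by 1.04 (SE 0.14, adjusted p = 0.000627) and Mrtfa, a coactivator of serum response factor, by 0.51 (SE 0.11, adjusted p = 0.00462).

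**Figure D4:**
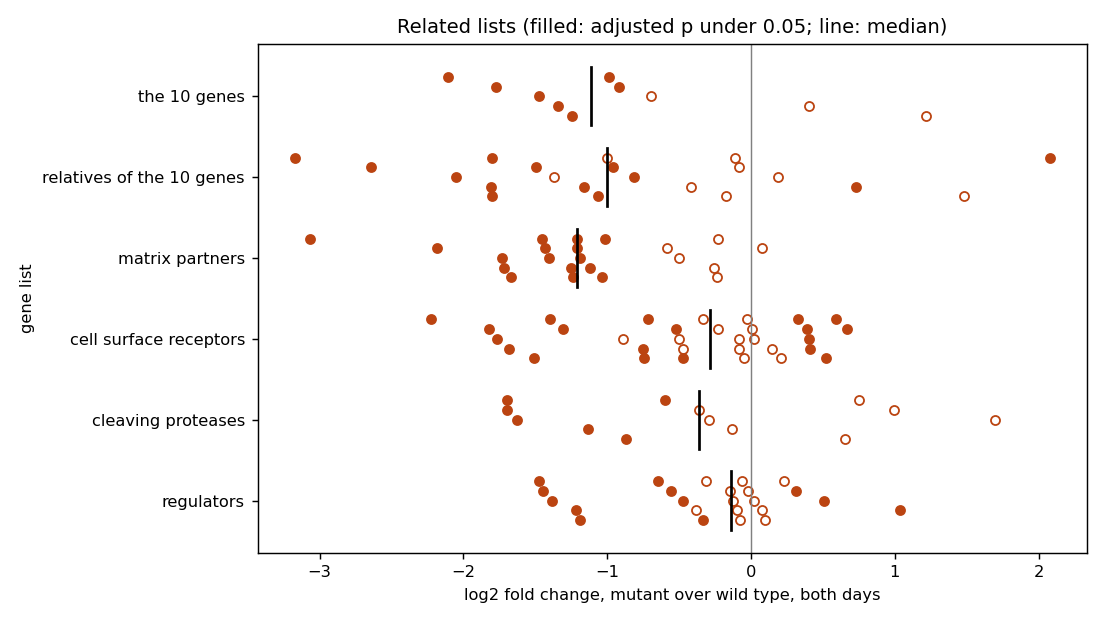
Log2 fold change over both days, mutant over wild type, of the 10 genes and of the related lists; each dot is a gene, filled dots have an adjusted p under 0.05, and the line is the list median. Matrix partners have 16 filled dots below 0 and none above, while receptors have filled dots on both sides.

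Reads of 3 genes may be mixed with those of a gene on the opposite strand if counting ignored strand, a setting not given in the sources used here. In the GENCODE M21 annotation, exons of Tnc share 176 bases with 8030451A03Rik, those of Fn1 292 bases with Apol7d and those of Tnxb 3 bases with Cyp21a2-ps.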

How the data were processed

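Reads of stranded total RNA libraries were summarised per gene by the authors, who deposited expected counts and TPM values with mean transcript lengths for each of 10 libraries. The file headers give the column layout of RSEM, and per the submitters' processing notes the tools included RSEM 1.3.0, STAR 2.7.8a and FastQC, with build GRCm39. The deposited expected counts were not normalized, and 13.9% of all values and 30.9% of those above 0 were not whole, and the deposited TPM values are scaled per gene length and to a fixed library total; the strand setting was not given in the sources used here. Groups came from the titles, and the sex of a library from Y-linked counts (500 or more for male).

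In R 4.3.3, expected counts were rounded and tested with edgeR 4.0.16: filterByExpr (minimum count 10, minimum total 15; 20216 of 55416 genes), TMM factors, 1 robust quasi-likelihood fit over the 4 groups with no covariate, Benjamini-Hochberg adjustment over all tested genes, threshold 0.05. The scripts were tested on simulated data. CPM use TMM-scaled library sizes, log2 fold changes a prior count of 0.125, and the common dispersion was 0.0767. Each SE was derived from the test, as the absolute log2 fold change divided by the square root of the quasi-likelihood F statistic. Total counts give the depth; replicates differed beyond counting noise (chi-square per degree of freedom 125 to 244), so replicate spread and not counting sets the precision. Alternatives were other scalings, filters and tools (limma-voom 3.58.1, DESeq2 1.42.0, limma on log2(TPM + 1) and log2(TPM + 0.1)), a replicate block, the tag of mutant 14 dpa replicate 1 and leaving out each library; male libraries only, both doubted 14 dpa libraries left out, TPM rescaled over protein-coding genes and protein-coding genes only were added after seeing the data.

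Named were the 10 genes; the paralogs Tnr, Thbs1, Thbs3, Comp, Tgfbi and Sparcl1; and, from each related list, up to 2 genes with the most negative and 2 with the most positive called change over both days. The members, lists, markers and tests were chosen with earlier results of these data known. Promoters and names came from GRCm38 tables, and no coordinate was taken from the files. Of the marker lists also examined, over both days all 6 endothelial and all 7 pericyte and smooth muscle markers fell, as did 5 of 7 osteoblast, 4 of 5 tested chondrocyte and 4 of 6 macrophage markers, while all 3 tested neutrophil markers, 1 of 6 Schwann cell markers and 1 of 4 tested megakaryocyte markers rose; of 2 tested skeletal muscle markers 1 fell and 1 rose. Beside these counts, 22.2% of all tested genes were called lower and 21.6% higher over both days. Only 3 of 6 listed neutrophil markers and 2 of 5 listed skeletal muscle markers passed the filter on low counts. Elane of the neutrophil list and Myh4 of the skeletal muscle list were at 0.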

Additional observations from a re-analysis of the deposited data

How the results depend on the processing

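Over both days 26 other settings were run; 8 of the 10 genes were below 0 and 2, Tnxb and Thbs4, above 0 under all of them, and the calls of Sparc, Thbs2 and Vcan were lost only with the tagged library placed in wild type (adjusted p = 0.114, 0.122 and 0.198). The number of the 10 genes that fell was 7 over both days, 2 at 12 dpa and 5 at 14 dpa. With the tagged library in wild type it was 0, 0 and 0. With no filter on low counts it was 3 over both days and 2 at 14 dpa, in male libraries only 3, 0 and 0, without both doubted 14 dpa libraries 4 at 12 dpa and 2 at 14 dpa, and with only the groups of the contrast in the fit 4 at 12 dpa and 3 at 14 dpa. At 14 dpa DESeq2 and rescaled TPM each gave 7, adding Tnn and Cthrc1, and Cthrc1 was called there under 9 of 27 settings. The main fit called 3476 of 20216 tested genes lower there, DESeq2 3967 of 20170 and rescaled TPM 3265 of 15400. It was 3172 of 32132 with no filter and 458 of 20599 in males. Without both doubted libraries it was 853 of 21081, and with only the groups of the contrast 2829 of 19491. At 12 dpa it was 1887 of 20216 in the main fit and 225 of 20599 in males. Without both doubted libraries it was 2001 of 21081 there, and with only the groups of the contrast 1726 of 19260. DESeq2 called 2 genes lower at 14 than at 12 dpa in mutants, against 0, and 5.33% of the genes it tested. Leaving out each library gave 3 to 8 over both days, 1 to 5 at 12 dpa and 1 to 8 at 14 dpa. Among all tested genes this called 3488 of 21169 to 4530 of 20014 lower over both days. The range was 502 of 21169 to 2269 of 20074 at 12 dpa and 1397 of 21114 to 3597 of 20008 at 14 dpa. Settings that leave out libraries fitted fewer of them; for the others the cause was not tested. At 14 dpa Tnxb turned from -0.11 to 0.045 and 0.13 on TPM with a pseudocount of 1 and 0.1, to 0.36 with the tagged library in wild type, to 0.26 without wild type 14 dpa replicate 2 and to 0.14 without mutant 14 dpa replicate 1, and Thbs4 from 0.77 to -0.51 without mutant 14 dpa replicate 2. Over all single libraries left out, Tnxb ran from -0.43 to 0.26 and Thbs4 from -0.51 to 1.57.

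Same-numbered libraries did not deviate together (r of -0.121 to 0.0863, 3 of 10 libraries correlated best with their own number). With 2 libraries in a wild type group their deviations mirror each other. Titles and descriptions also number the wild type 14 dpa pair in opposite order, so this check cannot exclude a pairing. A replicate block by title numbers called 6 genes lower over both days, 2 at 12 dpa and 5 at 14 dpa. By description numbers it called 6, 2 and 6. Of 20216 tested genes, 3542, 1110 and 2515 were called lower by title numbers, and 3611, 1171 and 2634 by description numbers. Cthrc1 had an adjusted p of 0.0920 and 0.0676 over both days.

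Over all tested genes 8846 were called over both days (0 with the tagged library in wild type, 3523 in male libraries, 5814 on rescaled TPM), 3338 at 12 dpa (771 to 2165 without wild type replicate 1 or 2 or mutant replicate 1 or 2 of that day, 1928 and 1922 with the blocks, 284 in males) and 6725 at 14 dpa (2571 and 2634 without wild type 14 dpa replicate 1 or 2, 4130 on rescaled TPM, 1519 without both doubted libraries, 577 in males). Between the days in mutants 7 were called by edgeR, 0 to 52 under its other settings, 1482 by DESeq2 and 2, 164, 217 and 294 by limma on counts and the TPM scales. In wild type 0 to 8 were called, 77 by DESeq2, and for the interaction 0 to 3, 48 by DESeq2. The TPM scale shifted the median of all genes over both days by 0.12 on the log2 scale with a pseudocount of 1 and by 0.23 with 0.1, and raised the share of higher calls over both days from 49.3% to 71.6%. At 14 dpa that share was 48.3%, with 36.4% under upper quartile factors, 20.9% on rescaled TPM and 69.4% on TPM. At 12 dpa it was 43.5%, with 72.8% on rescaled TPM and 71.7% on TPM, and 20.8% in male libraries only. In male libraries it was 37.8% over both days and 20.6% at 14 dpa, and 32.3% at 14 dpa without wild type 14 dpa replicate 2.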
